A study of Cucumis melo with 24 samples.

Results

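Fruit flesh of the melon (Cucumis melo) mutant cmnac-nor was compared with wild-type (WT) flesh at 35 days after pollination (DAP), with 3 RNA libraries of each genotype. These 6 libraries, picked by the genotype and age in their titles, belong to a series of 24 that covers both genotypes at 15, 25, 35 and 45 DAP. Both groups were harvested at 1 age from the same tissue, and the labels mention no other treatment. The sources used here do not give the lesion in the mutant, the number of mutant lines sampled or the parent cultivar. Whether the libraries of a group stand for separate fruits or plants is not stated, and the p-values therefore describe the spread among these samples, which may be purely technical.

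Melons of the climacteric kind ripen under ethylene, a gas hormone made from S-adenosylmethionine by ACC synthase and then ACC oxidase. Around ripening the flesh is known to build aroma esters and pigments, to loosen its cell walls and to shift its sugar and acid metabolism. CmNAC-NOR encodes a NAC-domain transcription factor, and its tomato relative NOR (NON-RIPENING) regulates ripening there. The comparison asks which transcripts of the flesh stood at another level at 35 DAP when CmNAC-NOR was mutated.

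Levels were deposited as a table that fits the unit TPM, a share of the library corrected for transcript length. Of 29980 genes in the table, the 17658 with 1 TPM or more in at least 3 of 24 libraries were tested. Changes are mutant minus WT on the log2(TPM + 1) scale with their standard error (SE), from limma-trend on the 6 libraries, and genes with an adjusted p under 0.05 were called (Benjamini-Hochberg over the genes tested). The log2(TPM + 1) scale understates the change of low genes. Where 3 values are given for a genotype, they stand in the order of the replicate numbers. The depth of the libraries is unknown, so no counting interval can be given. In whole flesh, fewer cells of a type and less RNA per cell cannot be told apart.

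Over the genes tested, the libraries correlated at 0.925 to 0.968 within the mutant and at 0.949 to 0.979 within WT, but at 0.703 to 0.773 between genotypes (Pearson's r of log2 values). In both genotypes, replicate 2 had the lowest mean correlation with its own group. Between 15365 and 15585 genes reached 1 TPM in mutant libraries, against 13980 to 14549 in WT libraries. The 100 most abundant genes took 22.1, 24.5 and 22.2% of the mutant libraries, against 30.7, 25.7 and 31% of the WT libraries. TPM are shares of a library, so a larger share in a few genes lowers the values of all others, and directions of gene groups were therefore also read under median-of-ratios scaling and under quantile normalization.

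The genotypes differed at 35 DAP in 10601 genes, 60% of those tested. Higher in the mutant were 6799 genes (38.5% of those tested), and lower were 3802 (21.5%). Without replicate 2 of both genotypes, 10839 genes were called, 7269 higher and 3570 lower. The surplus of higher genes depended on the scale: the split was 6799 against 3802 on the TPM scale, 5490 against 5123 under median-of-ratios scaling and 4940 against 5597 under quantile normalization. Over all genes tested, the median log2 change was 0.27 as deposited, 0.05 under median-of-ratios scaling and -0.03 under quantile normalization. Changes of at least 2-fold were called for 4154 higher and 1956 lower genes, of at least 4-fold for 1823 and 843, and of at least 16-fold for 382 and 231. A change of at least 64-fold was called for 82 higher and 68 lower genes. The 3 libraries of each genotype did not overlap for 12019 genes, 68.1% of those tested.

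**Figure D1:**
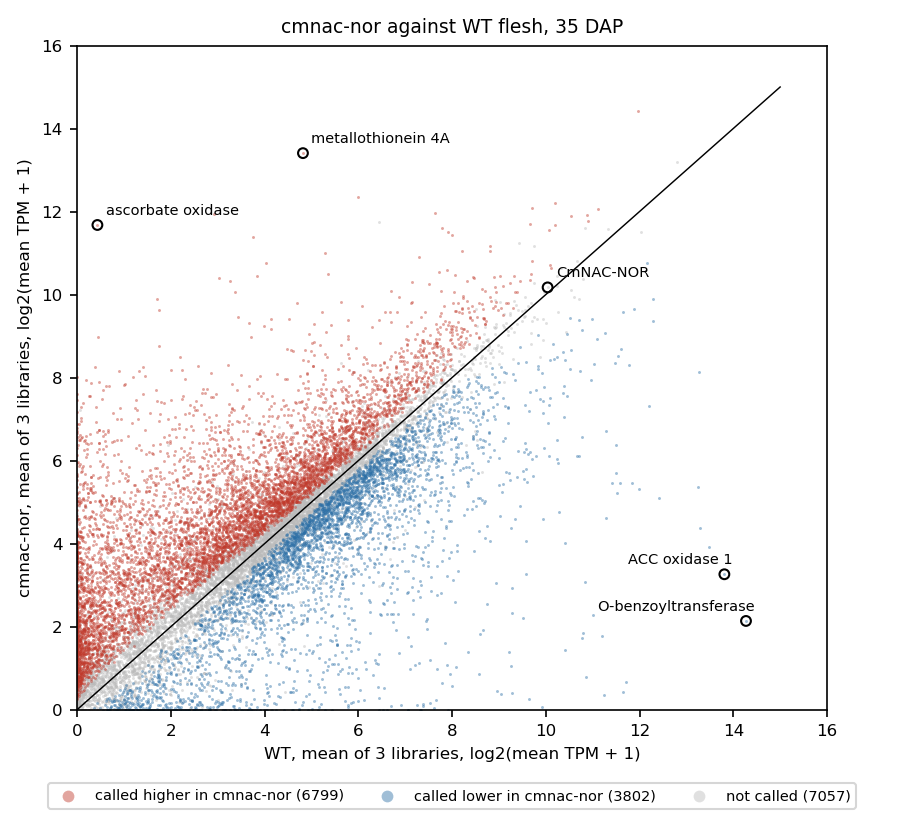
Mean level of each of the 17658 genes tested in mutant (vertical axis) and WT flesh (horizontal axis) at 35 DAP, as log2(mean TPM + 1) of 3 libraries, with the line of equal levels. Red points are the 6799 genes called higher in the mutant, blue points the 3802 called lower and grey points the rest; CmNAC-NOR lies near the line, and the named enzymes lie far from it on both sides.

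The most abundant genes were counted on the TPM scale only, not under the other scalings. Of 149 genes whose mean reached 1000 TPM in either genotype, 58 were called higher in the mutant and 70 lower. Over all genes tested, 38.5% were called higher and 21.5% lower on that scale. Such levels were reached by 75 genes in the mutant and 96 in WT. Among called genes whose mean reached 10 TPM in 1 genotype, 337 were under 1 TPM in each WT library and 115 were under 1 TPM in each mutant library.

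CmNAC-NOR itself (MELO3C016540.2) was one of the abundant transcripts of both genotypes. It measured 1216, 1028 and 1213 TPM in mutant and 1063, 798 and 1289.6 TPM in WT flesh, and the libraries of the genotypes overlapped. Its log2 change at 35 DAP was 0.16 (SE 0.22, adjusted p = 0.564) and was not called. At 25 DAP it averaged 543 ± 86.8 TPM in the mutant and 1417 ± 39.8 TPM in WT (SD, n = 3 each), and at 45 DAP 1862 ± 55.9 TPM in the mutant and 458 ± 46.1 TPM in WT (SD, n = 3 each). The genotype effect thus ran from -1.39 at 25 DAP (adjusted p = 0.000409) to 2.03 at 45 DAP (adjusted p = 0.000117), with the value for 35 DAP between them. Both steps were called, with a difference of 1.55, SE 0.26, adjusted p = 0.00155 between 35 and 25 DAP and of 1.87, SE 0.25, adjusted p = 0.000745 between 45 and 35 DAP. A change of sequence that leaves the transcript in place is not seen in these values, so the level of CmNAC-NOR does not check the genotype labels.

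The 8 largest changes towards higher levels in the mutant were led by an enzyme of the cell wall space. L-ascorbate oxidase (MELO3C015643.2), which oxidises ascorbate outside the cell, measured 3728, 3279 and 2802 TPM in the mutant and 0.37, 0.25 and 0.42 TPM in WT (log2 change 11.24, SE 0.12, adjusted p = 3.55e-06). A 14 kDa proline-rich protein dc2.15 (MELO3C005540.2) measured 3338, 3738 and 4625 TPM in the mutant, against 2.38, 13.9 and 3.43 TPM in WT (log2 change 9.32, SE 0.58, adjusted p = 0.000157). Metallothionein-like protein 4A (MELO3C003132.2), a small cysteine-rich metal-binding protein, measured 9481, 10646 and 12445 TPM in mutant and 36.3, 13.3 and 32 TPM in WT flesh (log2 change 8.70, SE 0.39, adjusted p = 7.49e-05). In these genes each mutant library stood above each WT library by more than 2 orders of magnitude, and metallothionein 4A was the second most abundant transcript of the mutant by mean. A putative membrane insertase with domain DUF1685 (MELO3C020877.2) followed at 1067, 1657 and 1348 TPM in the mutant and 0.94, 19.3 and 1.08 TPM in WT, with WT replicate 2 above the other WT libraries (log2 change 8.27, SE 0.97, adjusted p = 0.0011). MLP-like protein 329 (MELO3C015011.2), of the major latex protein family, measured 156, 889 and 459.6 TPM in the mutant, against 0.85, 0 and 0.22 TPM in WT (log2 change 8.25, SE 0.67, adjusted p = 0.000327). A peroxidase (MELO3C009329.2), from enzymes that use hydrogen peroxide to oxidise substrates such as wall phenolics, measured 1079.9, 555 and 719 TPM in mutant and 3.44, 1.18 and 2.46 TPM in WT flesh. Glutamate racemase (MELO3C018509.2) measured 450.1, 189 and 276 TPM in the mutant and 0.54, 0.36 and 0 TPM in WT. Nucleoside diphosphate kinase (MELO3C016294.2), which balances the pools of nucleoside triphosphates, measured 224, 254 and 298 TPM in the mutant libraries and was listed at 0 in the 3 WT libraries.

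The 8 largest changes towards lower levels in the mutant held several of the most abundant transcripts of WT flesh. A benzyl alcohol O-benzoyltransferase (MELO3C024771.2), of the acyltransferase family that joins alcohols and acyl groups into esters, measured 4.21, 3.11 and 2.85 TPM in the mutant, against 20591, 17676 and 21046 TPM in WT (log2 change -12.14, SE 0.15, adjusted p = 4.59e-06). It was the most abundant transcript of WT by mean and close to the floor in the mutant. A second gene of that description (MELO3C024766.2) measured 0.29, 0.45 and 0.27 TPM in mutant and 3569, 2744 and 3298 TPM in WT flesh (log2 change -11.22, SE 0.12, adjusted p = 3.55e-06). ACC oxidase 1 (MELO3C014437.2), the enzyme of the last step of ethylene synthesis, measured 4.9, 7.26 and 13.6 TPM in the mutant and 18087, 9217 and 15771 TPM in WT (log2 change -10.60, SE 0.42, adjusted p = 6.23e-05). It ranked second in WT. The third in rank, a branched-chain-amino-acid aminotransferase (MELO3C010776.2), which interconverts branched-chain amino acids and their keto acids, measured 25.4, 3.62 and 13.1 TPM in the mutant, against 12242, 8509 and 13447 TPM in WT (log2 change -9.87, SE 0.65, adjusted p = 0.000187).

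The others of these 8 were a 71A1-like cytochrome P450 (MELO3C025798.2), a second cytochrome P450 (MELO3C002311.2), an acidic endochitinase (MELO3C006965.2) and a phytosulfokines 3-like gene (MELO3C030339.2). Cytochrome P450s are oxygenases, endochitinases cleave chitin, and phytosulfokines are sulfated peptide hormones. The 71A1-like gene measured 0.63, 0.51 and 0.58 TPM in mutant and 3283, 3437 and 3306 TPM in WT flesh (log2 change -11.05, SE 0.06, adjusted p = 2.22e-07). The second P450 measured 0.41, 0.15 and 0.25 TPM in the mutant and 2669, 1986 and 2635 TPM in WT. The endochitinase measured 0.82, 0.71 and 0.66 TPM in the mutant, against 1779, 926 and 2835 TPM in WT. The phytosulfokine gene measured 0.13, 0 and 0 TPM in mutant and 1050.4, 803 and 1051 TPM in WT flesh. In each of the 4, the mutant libraries stayed under 1 TPM while the lowest WT value was 803 TPM, for the phytosulfokine gene. WT replicate 2 was the lowest WT library for each of the 8 genes except the 71A1-like P450, where it was the highest.

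**Figure D2:**
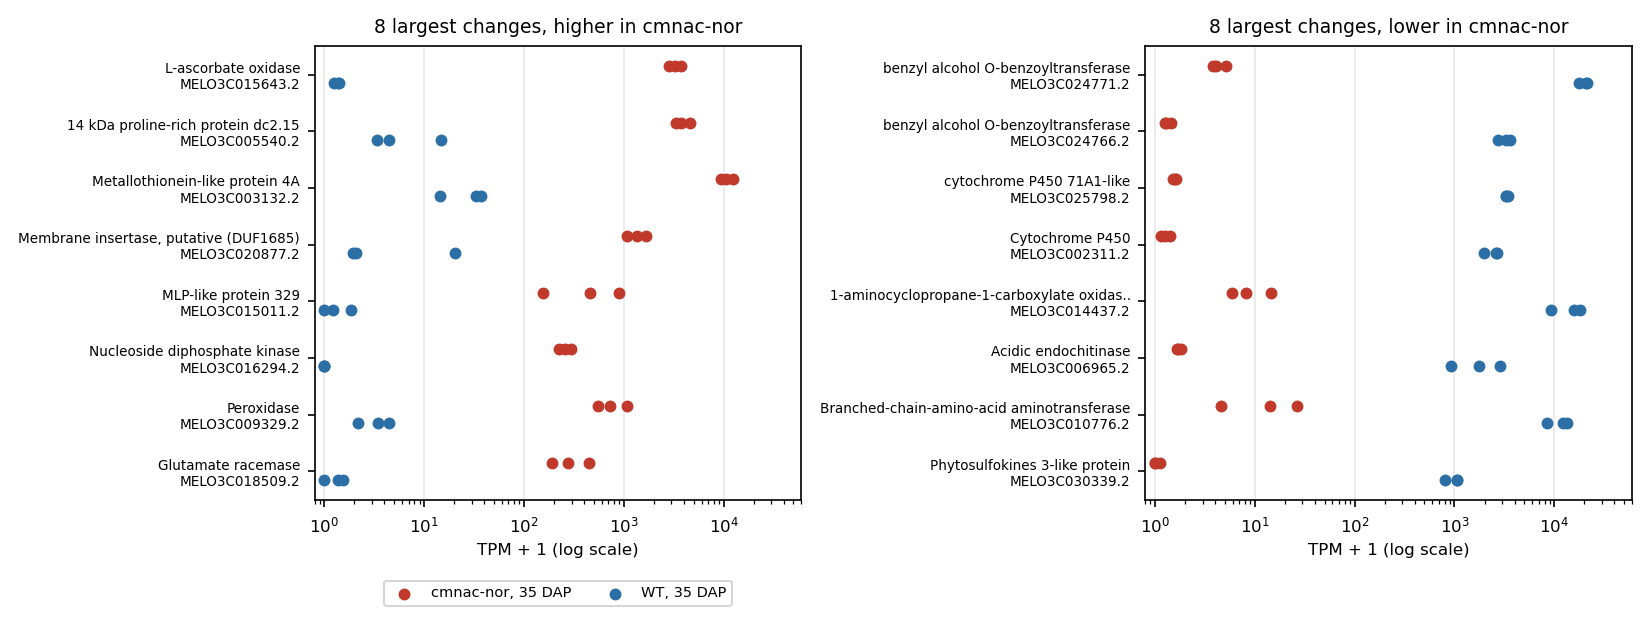
Levels of the 8 genes with the largest called changes in each direction at 35 DAP, as TPM + 1 on a log axis, with 1 point for each of the 3 mutant (red) and 3 WT libraries (blue). The genotypes do not overlap for any of the 16 genes, a condition of the choice, and the gap exceeds 2 orders of magnitude for most of them.

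A further pair of transcripts stood among the 5 most abundant of WT. One was a 3-oxo-5-alpha-steroid 4-dehydrogenase 1-like gene (MELO3C012324.2) with 30, 1.5 and 27.9 TPM in the mutant and 10671, 7846 and 11456 TPM in WT (log2 change -9.56, SE 1.03, adjusted p = 0.000839). The other was an aquaporin (MELO3C005685.2) with 141, 428 and 277 TPM in the mutant, against 10560, 5417 and 13679 TPM in WT (log2 change -5.17, SE 0.54, adjusted p = 0.000765). Among the 5 most abundant of the mutant, a calcium-binding EF-hand gene (MELO3C010875.2) measured 4978, 5161 and 5387 TPM in mutant and 82, 20.1 and 84.2 TPM in WT flesh (log2 change 6.61, SE 0.57, adjusted p = 0.000409). An auxin repressed protein (MELO3C007269.2) measured 3953, 5481 and 4708 TPM in the mutant and 1198, 1236 and 1061 TPM in WT (log2 change 2.01, SE 0.23, adjusted p = 0.00106). An undescribed gene (MELO3C028567.2) was high in both genotypes, at 9361 ± 748 TPM in the mutant and 7099 ± 754 TPM in WT (SD, n = 3 each), and was not called (adjusted p = 0.498). The most abundant transcript of the mutant, a translationally-controlled tumor protein homolog (MELO3C006670.2), measured 17552, 27320 and 20571 TPM in the mutant, against 3722, 4799.8 and 3549 TPM in WT (log2 change 2.43, SE 0.55, adjusted p = 0.0125). Its call was lost when mutant replicate 3, WT replicate 1 or WT replicate 3 was left out, and when both replicates 2 were. The call was also lost without the filter on low values, and adjusted p ran from 1.02e-07 to 0.657 over the alternatives.

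Ethylene synthesis differed by gene. Of 23 tested genes described as S-adenosylmethionine synthases, ACC synthases or ACC oxidases, 9 rose and 7 fell in the mutant, with 69.6% called against 60% of all genes tested. Under quantile normalization the counts were 5 and 8. An ACC synthase (MELO3C021182.2), the enzyme that usually sets the pace of ethylene synthesis, measured 0, 0 and 0.1 TPM in mutant and 146, 385 and 56.5 TPM in WT flesh (log2 change -7.17, SE 0.68, adjusted p = 0.000554). All mutant libraries were at or near 0, and WT replicate 2 was the highest of the WT libraries. An S-adenosylmethionine synthase (MELO3C012911.2) measured 726, 855 and 723 TPM in the mutant and 26.4, 58.4 and 24.9 TPM in WT (log2 change 4.46, SE 0.34, adjusted p = 0.00028). A second ACC oxidase (MELO3C027120.2) rose to 30.9, 43.3 and 35.4 TPM in the mutant libraries, against 12.5, 14 and 13.5 TPM in WT, far under the WT level of ACC oxidase 1. Summed over the genes of the list, levels were 2126, 2105 and 2033 TPM in the mutant libraries, against 20744, 11878 and 18175 TPM in WT. ACC oxidase 1, at 18087, 9217 and 15771 TPM in WT, makes up most of the WT sum.

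Of 14 tested genes of ethylene perception and signalling, 4 rose and 2 fell (42.9% called, against 60% of all genes tested). Both counts were 2 without mutant replicate 3, WT replicate 1 or WT replicate 3. Their balance turned under the other scalings, with 2 and 5 under median-of-ratios scaling and 2 and 3 under quantile normalization. An ethylene receptor (MELO3C015961.2) measured 86.8, 69.2 and 82.4 TPM in the mutant, against 15.3, 13.7 and 16.5 TPM in WT (log2 change 2.31, SE 0.12, adjusted p = 9.55e-05). ETHYLENE INSENSITIVE 3 (MELO3C015633.2), a transcription factor at the end of the ethylene signal chain in Arabidopsis, measured 317, 397 and 382 TPM in mutant and 106, 158 and 95.7 TPM in WT flesh (log2 change 1.63, SE 0.21, adjusted p = 0.00163). Ethylene insensitive 2 (MELO3C014230.2), a membrane protein upstream of it, was lower at 61.8, 53.4 and 65.7 TPM in the mutant and 89.3, 87.4 and 93.9 TPM in WT (log2 change -0.58, SE 0.09, adjusted p = 0.00348). The most abundant gene of the list, EIN3-binding F box protein 1 (MELO3C011260.2), which targets EIN3 for breakdown in Arabidopsis, averaged 239 ± 35.7 TPM in the mutant and 284 ± 27.3 TPM in WT (SD, n = 3 each) and was not called (adjusted p = 0.175).

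Genes of aroma volatile synthesis split evenly by number but not by level. Of 28 tested acyltransferases, alcohol dehydrogenases and aminotransferases, 9 rose and 9 fell (32.1% each way, beside 38.5% and 21.5% of all genes); the counts were 7 and 10 under median-of-ratios scaling and 6 and 9 under quantile normalization. Their summed level was 1966, 2167 and 2007 TPM in the mutant libraries, against 42706, 34881 and 44213 TPM in WT. The list made up 0.209 to 0.23% of the mutant libraries and 3.7 to 4.68% of the WT libraries, without overlap. Without WT replicate 1, 5 rose and 8 fell. The 2 O-benzoyltransferases and the branched-chain aminotransferase given above carry most of the WT sum. Another branched-chain-amino-acid aminotransferase (MELO3C007664.2) went the other way, with 75, 68.8 and 71.4 TPM in the mutant, against 2.79, 7.21 and 2.73 TPM in WT (log2 change 3.90, SE 0.33, adjusted p = 0.000377).

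Lipoxygenase and jasmonate genes, whose products make fatty-acid-derived volatiles and the hormone jasmonate, rose in 17 and fell in 9 of 37 tested (45.9% and 24.3%, beside 38.5% and 21.5% of all genes), with a median log2 change of 1.23, against 0.27 over all genes. A 12-oxophytodienoate reductase-like gene (MELO3C008075.2), of the enzymes that reduce jasmonate precursors, measured 113, 83.5 and 89.7 TPM in mutant and 0.65, 2.57 and 0.16 TPM in WT flesh (log2 change 5.66, SE 0.43, adjusted p = 0.00028). TIFY 8 (MELO3C011217.2), from the family that holds jasmonate repressors, measured 70.6, 77.7 and 75.6 TPM in the mutant and 2.46, 5.05 and 2.24 TPM in WT (log2 change 4.21, SE 0.26, adjusted p = 0.000149). Jasmonate O-methyltransferase (MELO3C003803.2), which makes the volatile methyl ester, measured 6.62, 1.89 and 3.5 TPM in the mutant, against 729, 357 and 762 TPM in WT (log2 change -6.98, SE 0.46, adjusted p = 0.000186). Allene oxide synthase (MELO3C018413.2), the most abundant of the list and the enzyme that commits fatty acid hydroperoxides to jasmonate, measured 527, 301 and 403 TPM in mutant and 3175, 2109 and 3991 TPM in WT flesh (log2 change -2.90, SE 0.33, adjusted p = 0.000968). More genes of the list rose than fell, as over all genes, while its summed level was 1116 to 1871 TPM in the mutant and 3441 to 5621 TPM in WT.

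Pectin genes showed the same contrast between counts and levels. Of 67 tested, 34 rose and 17 fell (50.7% and 25.4%), so that 76.1% were called, against 60% of all genes (38.5% and 21.5%). The median log2 change was 0.82, against 0.27 over all genes; under quantile normalization 23 rose and 20 fell. A polygalacturonase At1g48100-like gene (MELO3C010668.2), of the enzymes that cut the pectin backbone, measured 52.4, 49.8 and 69 TPM in the mutant and 0, 0.5 and 0.1 TPM in WT (log2 change 5.60, SE 0.22, adjusted p = 6.04e-05). A pectin acetylesterase (MELO3C016210.2), which removes acetyl groups from pectin, measured 49.2, 90.8 and 91.8 TPM in the mutant, against 1.98, 0.46 and 1.69 TPM in WT (log2 change 5.05, SE 0.38, adjusted p = 0.000268). The polygalacturonase with the highest level of the list (MELO3C015128.2) went down, to 3.37, 0.22 and 1.26 TPM in the mutant, against 766, 297 and 707 TPM in WT (log2 change -7.89, SE 0.59, adjusted p = 0.000264). Another polygalacturonase (MELO3C027277.2) measured 0, 0.27 and 0 TPM in mutant and 199.8, 112 and 188 TPM in WT flesh (log2 change -7.23, SE 0.26, adjusted p = 4.76e-05). Different polygalacturonase genes therefore lay at opposite ends of the comparison, and the list summed to 848 to 921 TPM in the mutant and 1533 to 2451 TPM in WT.

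Of 71 tested expansins, xyloglucan endotransglucosylase/hydrolases (XTHs) and wall glycosidases, 28 rose and 15 fell, which is 39.4% and 21.1% beside 38.5% and 21.5% of all genes. An XTH (MELO3C017480.2), an enzyme that cuts and rejoins xyloglucan, measured 53, 427 and 229 TPM in the mutant and 0.57, 0.35 and 0.21 TPM in WT (log2 change 6.99, SE 0.76, adjusted p = 0.000875), with mutant replicate 1 well under the other mutant libraries. Expansin-like A2 (MELO3C013289.2) measured 80.5, 41.5 and 88.1 TPM in the mutant, against 0.44, 0.89 and 0.2 TPM in WT (log2 change 5.51, SE 0.34, adjusted p = 0.000161). Beta-galactosidase (MELO3C015470.2), which trims galactose from wall polymers and is the most abundant of the list, measured 29.5, 47.4 and 40.2 TPM in mutant and 4762, 2270.2 and 5189 TPM in WT flesh (log2 change -6.60, SE 0.37, adjusted p = 0.000123). An endoglucanase-like gene (MELO3C005716.2) measured 0.21, 0 and 0.28 TPM in the mutant and 199.6, 276 and 127 TPM in WT (log2 change -7.38, SE 0.30, adjusted p = 6.33e-05). Summed over the list, the mutant libraries held 1423 to 1792 TPM and the WT libraries 5887 to 7785 TPM.

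Carotenoid synthesis, the source of orange flesh colour, had more falls than rises: 14 of 32 tested genes fell (43.8%, against 21.5% of all genes) and 9 rose. The falls were 16 under median-of-ratios scaling and 19 under quantile normalization. A phytoene synthase (MELO3C014677.2), which makes the first carotenoid, measured 0.11, 0.27 and 0.1 TPM in the mutant, against 59.9, 31.3 and 97.4 TPM in WT (log2 change -5.64, SE 0.41, adjusted p = 0.00025). Phytoene desaturase (MELO3C017772.2), the next enzyme and the most abundant of the list, measured 129, 69.3 and 103 TPM in mutant and 504, 289 and 537 TPM in WT flesh (log2 change -2.13, SE 0.33, adjusted p = 0.00314). 15-cis-zeta-carotene isomerase (MELO3C017709.2) measured 8.26, 5.03 and 6.69 TPM in the mutant and 42.8, 51.1 and 50.4 TPM in WT (log2 change -2.70, SE 0.18, adjusted p = 0.000194). These 3 steps of the early pathway were lower in each mutant library than in each WT library. Lack of overlap was a condition of the choice for the phytoene synthase and the 15-cis-zeta-carotene isomerase. Among the rises, isopentenyl diphosphate isomerase (MELO3C010053.2) averaged 37.2 TPM in the mutant and 11.3 TPM in WT. Violaxanthin de-epoxidase (MELO3C034581.2) averaged 72.8 TPM in the mutant and 29.6 TPM in WT. The calls of these rises were lost under 2 and 9 alternatives. Summed over the list, levels were 857 to 872 TPM in the mutant and 1429 to 2051 TPM in WT.

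Cleavage of carotenoids leads to the hormone abscisic acid. Of 31 tested genes of carotenoid cleavage and abscisic acid, 11 rose and 8 fell (35.5% and 25.8%, near the 38.5% and 21.5% of all genes), with 11 and 11 under median-of-ratios scaling and 9 and 12 under quantile normalization. The rate-limiting enzyme of abscisic acid synthesis, 9-cis-epoxycarotenoid dioxygenase, had genes on both sides. One (MELO3C023086.2) measured 44.6, 63.4 and 83.2 TPM in the mutant, against 4.95, 2.49 and 4.84 TPM in WT (log2 change 3.66, SE 0.32, adjusted p = 0.000397). Another (MELO3C027057.2) measured 29.8, 2.24 and 6.51 TPM in mutant and 237, 73.2 and 187 TPM in WT flesh (log2 change -4.04, SE 0.92, adjusted p = 0.0127). Xanthoxin dehydrogenase (MELO3C005129.2), a later step of that pathway in Arabidopsis, measured 50.6, 94.4 and 64.5 TPM in the mutant and 2.59, 0.55 and 2.13 TPM in WT (log2 change 4.73, SE 0.40, adjusted p = 0.000371). Summed levels of the list overlapped, at 5345 to 7233 TPM in the mutant and 5673 to 7218 TPM in WT. The sums are not those of cleavage and synthesis enzymes alone. The most abundant gene, an abscisic stress ripening-like gene (MELO3C025027.2), measured 4287, 3711 and 3603 TPM in the mutant and 1977.5, 1932 and 1729 TPM in WT. It was called higher, a call lost under 5 alternatives. Another (MELO3C025025.2) was called lower, a call lost under 7 alternatives. It averaged 73.2 ± 95 TPM in the mutant and 804 ± 110 TPM in WT (SD, n = 3 each).

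Chlorophyll breakdown and photosynthesis were measured because unripe flesh can hold green plastids. STAY-GREEN (MELO3C005616.2), which starts chlorophyll removal, measured 46, 39.6 and 37.9 TPM in the mutant, against 558, 388 and 593 TPM in WT (log2 change -3.59, SE 0.18, adjusted p = 9.86e-05). A pheophorbide a oxygenase (MELO3C004867.2), which opens the chlorophyll ring, measured 28, 23.6 and 26.8 TPM in mutant and 75.2, 55.9 and 85.9 TPM in WT flesh. A second gene of that description (MELO3C035546.2) rose to 22, 17.2 and 17.9 TPM in the mutant libraries, against 6.34, 8.16 and 6.97 TPM in WT. The next enzyme of that route, red chlorophyll catabolite reductase (MELO3C020913.2), measured 208, 357 and 298 TPM in the mutant and 89.2, 75.2 and 98.6 TPM in WT (log2 change 1.68, SE 0.22, adjusted p = 0.00177). Over the 12 tested genes of chlorophyll breakdown, 4 rose and 4 fell (33.3% each way, beside 38.5% and 21.5% of all genes), with 4 and 6 under either other scaling.

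Genes of photosynthesis were mostly lower where they were called. Of 89 tested, 35 fell (39.3%, against 21.5% of all genes) and 7 rose (7.87%, against 38.5%), with a median log2 change of -0.50. The counts were 39 and 3 under median-of-ratios scaling and 43 and 4 under quantile normalization. Chlorophyll a-b binding proteins, which harvest light, are among them. The most abundant (MELO3C019677.2) measured 147, 267 and 145 TPM in the mutant, against 1478, 944 and 1770.2 TPM in WT (log2 change -2.92, SE 0.35, adjusted p = 0.00117). Others measured 1.53, 7.91 and 2.38 TPM in mutant and 68.8, 80.4 and 111 TPM in WT flesh (MELO3C032881.2) and 1.5, 2.76 and 2.11 TPM in the mutant and 66.3, 43.9 and 71.4 TPM in WT (MELO3C015536.2). A gene that rose was a photosystem II reaction center W protein (MELO3C004388.2), with 33.5, 39 and 29.2 TPM in the mutant, against 8.57, 6.93 and 15.6 TPM in WT (log2 change 1.69, SE 0.30, adjusted p = 0.00493). Summed over the list, mutant libraries held 6032, 6554 and 5365 TPM and WT libraries 12993, 9774 and 18870 TPM.

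Sugar metabolism moved gene by gene. Of 45 tested genes of sucrose and raffinose-family sugars, 18 rose and 13 fell as deposited (40% and 28.9%, beside 38.5% and 21.5% of all genes), but 14 and 16 under median-of-ratios scaling and 12 and 16 under quantile normalization. A sucrose synthase (MELO3C025101.2), which splits sucrose reversibly, measured 197, 168 and 184 TPM in mutant and 7.58, 2.47 and 8.69 TPM in WT flesh (log2 change 4.80, SE 0.41, adjusted p = 0.000381). An alpha-galactosidase (MELO3C010698.2), which frees galactose from raffinose sugars, measured 82.1, 69.6 and 71.1 TPM in the mutant and 5.66, 5.12 and 10.3 TPM in WT (log2 change 3.28, SE 0.25, adjusted p = 0.000284). Acid beta-fructofuranosidase (MELO3C005363.2), the acid invertase that splits sucrose, measured 2.11, 5.85 and 4.31 TPM in the mutant, against 73, 49.5 and 101 TPM in WT (log2 change -3.91, SE 0.39, adjusted p = 0.000631). A pair of genes for ATP-dependent 6-phosphofructokinase were both lower. They entered the list by the words of their description and act at an entry step of glycolysis. One (MELO3C015428.2) measured 38.1, 11.6 and 23.5 TPM in mutant and 384, 837 and 327 TPM in WT flesh (log2 change -4.37, SE 0.54, adjusted p = 0.00136), and the other (MELO3C032910.2), the most abundant of the list, measured 69.2, 28.3 and 45.2 TPM in the mutant and 773, 464 and 776 TPM in WT (log2 change -3.84, SE 0.38, adjusted p = 0.000624).

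Of 39 tested sugar transporters, 12 rose and 8 fell (51.3% called, against 60% of all genes), but 9 and 10 did under median-of-ratios scaling and 7 and 11 under quantile normalization. Leaving out mutant replicate 3 gave 6 and 6, and leaving out WT replicate 1 gave 7 and 6. A SWEET transporter (MELO3C005869.2), of the family that lets sugars cross membranes both ways, measured 0.19, 7.21 and 2.84 TPM in the mutant, against 193, 122 and 205 TPM in WT (log2 change -5.67, SE 0.72, adjusted p = 0.00149). The most abundant gene of the list, also a SWEET (MELO3C002381.2), averaged 141 ± 52.2 TPM in the mutant and 347 ± 123 TPM in WT (SD, n = 3 each). It was called lower, but the call was lost under 7 alternatives. A putative sugar transporter (MELO3C007324.2) measured 0.19, 0.12 and 0.64 TPM in mutant and 15.2, 16.2 and 15.5 TPM in WT flesh (log2 change -3.68, SE 0.18, adjusted p = 9.06e-05). Rises included another SWEET gene (MELO3C016259.2) with 6.34, 28.5 and 23.2 TPM in the mutant and 2.26, 0.85 and 2.75 TPM in WT. Another putative sugar transporter (MELO3C010933.2) rose to 32.8, 23.7 and 33.6 TPM in the mutant, against 7.13, 16.2 and 4.02 TPM in WT. The calls of these rises were lost under 3 and 4 alternatives. Of 26 tested starch genes, 8 rose and 8 fell (61.5% called, against 60% of all genes), with 8 and 12 under median-of-ratios scaling and 5 and 13 under quantile normalization. A beta-amylase (MELO3C023067.2), which frees maltose from starch, measured 0.96, 0.77 and 1.42 TPM in the mutant and 321, 154 and 331 TPM in WT (log2 change -6.97, SE 0.33, adjusted p = 8.33e-05). A second (MELO3C021362.2), the most abundant of the list, measured 115, 125 and 139 TPM in the mutant, against 265, 260.4 and 243 TPM in WT (log2 change -1.01, SE 0.09, adjusted p = 0.000485). Glucose-1-phosphate adenylyltransferase, which makes the building block of starch, had a gene that rose (MELO3C023310.2, 67, 59.5 and 72.4 TPM in mutant and 3.62, 8.59 and 4.25 TPM in WT flesh) and one that fell (MELO3C021412.2, 1.04, 0.25 and 0.55 TPM in the mutant and 26.2, 15.4 and 29.8 TPM in WT).

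Organic acid genes also went both ways, with 14 rises and 15 falls among 43 tested (32.6% and 34.9%, beside 38.5% and 21.5% of all genes). The rises numbered 8 without WT replicate 1 and 9 without WT replicate 3, and without mutant replicate 2 the counts were 16 and 14. Phosphoenolpyruvate carboxykinase (MELO3C003491.2), which turns oxaloacetate towards sugar synthesis, measured 345, 401 and 440.4 TPM in the mutant, against 21.7, 30.2 and 18.2 TPM in WT (log2 change 4.05, SE 0.20, adjusted p = 9.15e-05). Malic enzyme (MELO3C015407.2), which decarboxylates malate, measured 1791, 1292 and 1526 TPM in mutant and 105, 502 and 105 TPM in WT flesh (log2 change 3.10, SE 0.66, adjusted p = 0.0096), with WT replicate 2 above the other WT libraries. An ATP-citrate synthase beta chain gene (MELO3C011482.2), part of an enzyme that cleaves citrate, measured 8.89, 7.49 and 6.62 TPM in the mutant and 288, 144 and 337 TPM in WT (log2 change -4.81, SE 0.34, adjusted p = 0.00022). An aluminum-activated malate transporter 12-like gene (MELO3C014412.2) measured 0.34, 0.2 and 0.09 TPM in the mutant, against 47.8, 183 and 28.1 TPM in WT (log2 change -5.73, SE 0.69, adjusted p = 0.0012). The most abundant gene of the list, NADP isocitrate dehydrogenase (MELO3C025076.2), measured 555, 511 and 534 TPM in mutant and 2576, 1943 and 2863 TPM in WT flesh (log2 change -2.19, SE 0.19, adjusted p = 0.000411).

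In each of the 6 transcription factor families read here, more genes rose than fell, an order that held under both other scalings. NAC factors counted 20 and 8 of 54, MADS-box factors 15 and 3 of 36, AP2/ERF factors 38 and 13 of 87, WRKY factors 22 and 10 of 50, MYB factors 34 and 11 of 70 and basic helix-loop-helix (bHLH) factors 40 and 5 of 70. Lists were picked by words in the descriptions. The MYB falls therefore include a gene described as target of Myb protein 1 (MELO3C003249.2), which is not described as a MYB factor itself. The shares that rose lay between 37% and 57.1%, against 38.5% of all genes, and the shares that fell between 7.14% and 20%, against 21.5%.

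Among NAC genes, MELO3C017754.2 was one of the more abundant in WT and measured 65.4, 60.8 and 77 TPM in the mutant and 1109, 461 and 1088 TPM in WT (log2 change -3.59, SE 0.37, adjusted p = 0.000721). NAC 104-like (MELO3C023230.2) measured 103, 130.4 and 73.3 TPM in the mutant, against 2.24, 17.5 and 0.2 TPM in WT (log2 change 4.59, SE 1.01, adjusted p = 0.0109). A further NAC gene (MELO3C012873.2) measured 31.8, 22.8 and 15.3 TPM in mutant and 0.02, 0 and 0.85 TPM in WT flesh (log2 change 4.24, SE 0.37, adjusted p = 0.00041). Among MADS-box genes, 3 described as AGAMOUS type, the class that specifies reproductive organs and in tomato includes a ripening regulator, gave opposite values. One (MELO3C002691.2) rose to 1833, 2568 and 1967 TPM in the mutant, against 434, 407 and 493 TPM in WT (log2 change 2.24, SE 0.18, adjusted p = 0.000331). The other two fell: MELO3C019694.2 measured 350.2, 341 and 328 TPM in the mutant and 1367, 1218 and 1477 TPM in WT (log2 change -1.99, SE 0.12, adjusted p = 0.000137). MELO3C000260.2 measured 141, 159.7 and 142 TPM in the mutant, against 431, 364 and 502 TPM in WT (log2 change -1.53, SE 0.14, adjusted p = 0.000454). A MADS-box transcription factor 8-like gene (MELO3C022315.2) measured 294, 105 and 228 TPM in mutant and 6.36, 7.02 and 4.04 TPM in WT flesh (log2 change 4.85, SE 0.42, adjusted p = 0.000414). AGAMOUS-like AGL80 (MELO3C015239.2) measured 19.7, 109 and 52.7 TPM in the mutant libraries and was listed at 0 in the 3 WT libraries.

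AP2/ERF factors include the transcription factors named for their response to ethylene. Ethylene-responsive transcription factor 2 (MELO3C013916.2) measured 222, 170.4 and 199 TPM in the mutant and 2.32, 13.6 and 0.92 TPM in WT (log2 change 5.44, SE 0.75, adjusted p = 0.00202). ERF039 (MELO3C013926.2) measured 37.7, 56.3 and 45.9 TPM in the mutant, against 0.51, 0.06 and 0.52 TPM in WT (log2 change 5.13, SE 0.23, adjusted p = 7.08e-05). Other genes of that description fell: MELO3C007242.2 measured 9.48, 7.42 and 7.81 TPM in mutant and 262, 176 and 266 TPM in WT flesh (log2 change -4.65, SE 0.19, adjusted p = 6.33e-05). MELO3C017940.2 measured 30.2, 7.77 and 62.6 TPM in the mutant and 382, 415 and 319 TPM in WT (log2 change -3.84, SE 0.72, adjusted p = 0.00618). The most abundant of the list, RAP2-3-like (MELO3C021306.2), averaged 634 ± 244 TPM in the mutant and 1025 ± 67.6 TPM in WT (SD, n = 3 each) and was not called (adjusted p = 0.0681).

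WRKY factors, known from defence and senescence, were read next. One (MELO3C017743.2) measured 0.41, 0.31 and 0.96 TPM in the mutant, against 246, 189 and 228 TPM in WT (log2 change -7.17, SE 0.19, adjusted p = 2.92e-05). Another (MELO3C014896.2) measured 9.11, 1.2 and 4.77 TPM in mutant and 262, 289 and 248 TPM in WT flesh (log2 change -5.73, SE 0.55, adjusted p = 0.000582). A further one (MELO3C009097.2) went up to 96.7, 118 and 113 TPM in the mutant, against 2.75, 5.87 and 1.96 TPM in WT (log2 change 4.70, SE 0.32, adjusted p = 0.00021). A bHLH factor (MELO3C011994.2) measured 0.04, 0.04 and 0.12 TPM in the mutant and 124, 74.5 and 111 TPM in WT (log2 change -6.58, SE 0.21, adjusted p = 4.09e-05). The factor bHLH93-like (MELO3C011110.2) measured 177, 459 and 235 TPM in the mutant, against 1.33, 8.33 and 1.54 TPM in WT (log2 change 6.14, SE 0.66, adjusted p = 0.000808). A Myb transcription factor (MELO3C020701.2) measured 12.6, 20.8 and 18.5 TPM in mutant and 0.15, 0 and 0 TPM in WT flesh (log2 change 4.10, SE 0.21, adjusted p = 0.000102). MYB44 (MELO3C007586.2) measured 9.03, 15.1 and 17.3 TPM in the mutant and 39, 65.8 and 67.9 TPM in WT (log2 change -1.99, SE 0.32, adjusted p = 0.00342). The most abundant MYB gene (MELO3C013925.2) averaged 595 ± 167 TPM in the mutant and 417 ± 48.2 TPM in WT (SD, n = 3 each) and was not called (adjusted p = 0.135).

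Auxin genes were among the lists with the most rises. Of 108 tested, 60 rose (55.6%, against 38.5% of all genes) and 15 fell, with a median log2 change of 1.17; the counts were 57 and 16 under median-of-ratios scaling and 48 and 19 under quantile normalization. An auxin-responsive protein (MELO3C006476.2) measured 135, 296 and 235 TPM in the mutant, against 0.76, 0.45 and 0.4 TPM in WT (log2 change 7.11, SE 0.31, adjusted p = 7.06e-05). SAUR71-like (MELO3C022688.2), of a family of small auxin-induced transcripts, measured 142, 399 and 238 TPM in mutant and 0.23, 4.32 and 0.61 TPM in WT flesh (log2 change 6.77, SE 0.67, adjusted p = 0.000621). The falls included an auxin-responsive family protein (MELO3C005913.2) with 20.3, 8.35 and 9.88 TPM in the mutant and 297, 258 and 202 TPM in WT (log2 change -4.27, SE 0.34, adjusted p = 0.000326). Summed over the list, the mutant libraries held 10239, 12005 and 11028 TPM and the WT libraries 4289, 5112 and 4324 TPM, and auxin repressed protein made up a large part of both.

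Genes of gibberellin, cytokinin and brassinosteroid counted 24 rises and 16 falls of 54 tested (44.4% and 29.6%, beside 38.5% and 21.5% of all genes), but 18 and 20 under quantile normalization. The gibberellin receptor gene GID1B (MELO3C008100.2), whose product binds gibberellin and starts the breakdown of growth repressors in Arabidopsis, measured 2.53, 0.4 and 2.19 TPM in the mutant, against 1219, 1585 and 1301 TPM in WT (log2 change -9.08, SE 0.38, adjusted p = 6.33e-05). The related GID1A (MELO3C027137.2) measured 0.09, 0.48 and 0.44 TPM in mutant and 28.5, 30.7 and 10.9 TPM in WT flesh (log2 change -4.07, SE 0.42, adjusted p = 0.000728). Gibberellin-regulated protein 2 (MELO3C011008.2) measured 1144, 2340 and 1740 TPM in the mutant and 3.98, 40.5 and 1.57 TPM in WT (log2 change 7.69, SE 1.07, adjusted p = 0.00202), with WT replicate 2 above the other WT libraries. A gibberellin-regulated family protein (MELO3C009872.2) measured 96, 172 and 99.2 TPM in the mutant, against 0, 0 and 0.16 TPM in WT (log2 change 6.82, SE 0.26, adjusted p = 5.43e-05).

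**Figure D3:**
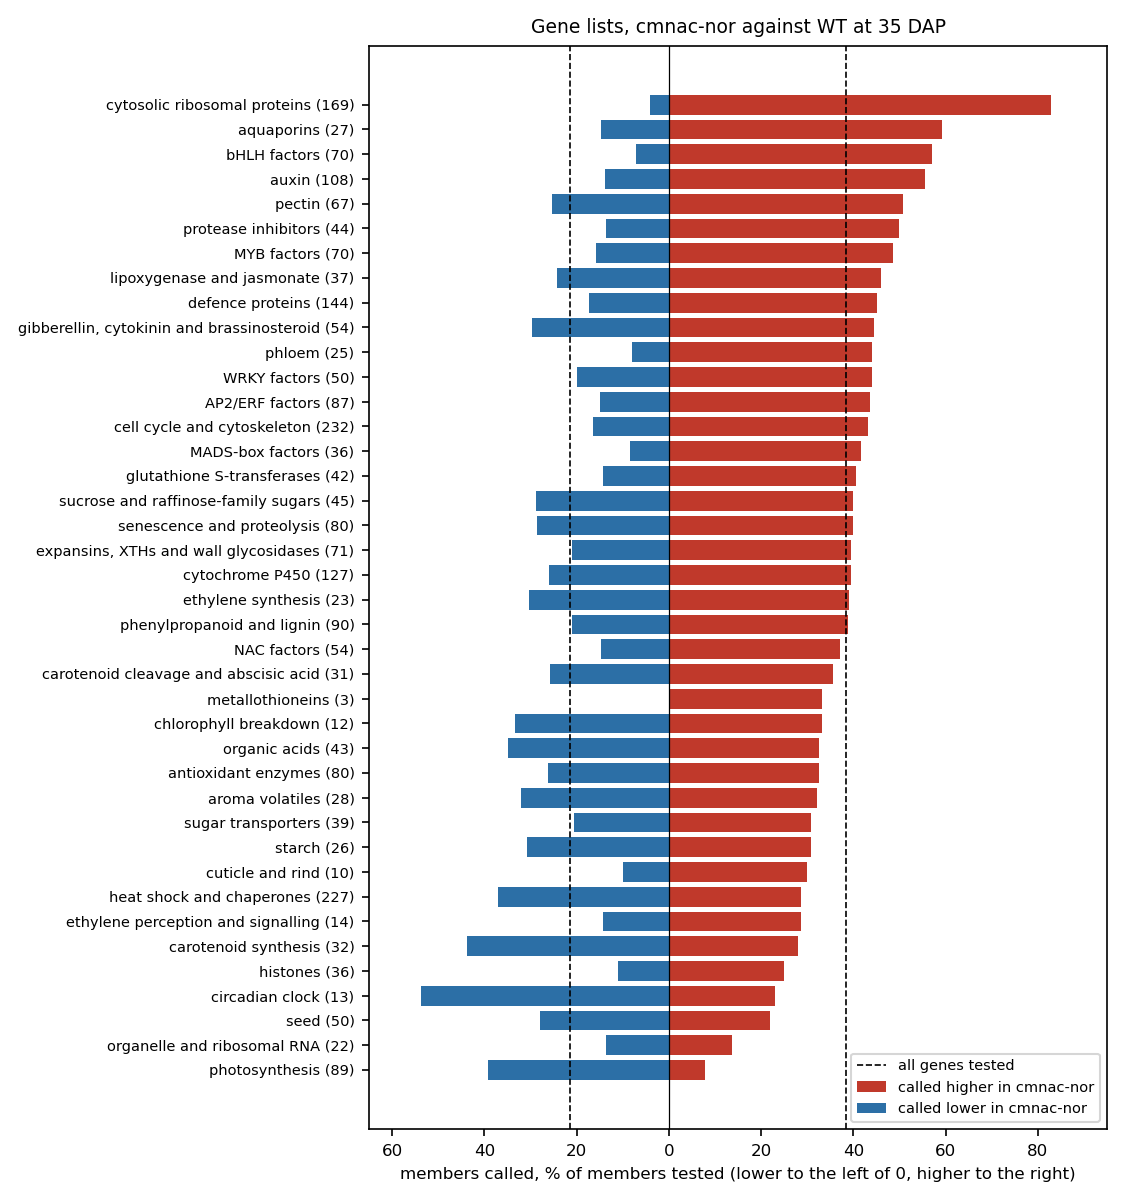
Share of the tested genes of each list called higher (red, right) or lower (blue, left) in the mutant at 35 DAP, in percent, with the number of genes tested in brackets. Dashed lines mark the shares over all genes tested, 38.5% and 21.5%; cytosolic ribosomal proteins reach furthest to the right and photosynthesis genes have the smallest share higher among the lists drawn.

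Cytosolic ribosomal proteins, the protein part of the cytosolic ribosome, had the highest share of called genes among the 40 lists (87%, against 60% of all genes). Of 169 tested, 140 rose and 7 fell (82.8% and 4.14%, beside 38.5% and 21.5% of all genes), with a median log2 change of 0.96; under median-of-ratios scaling 119 rose and 10 fell, and under quantile normalization 133 and 9. The falls numbered 4 without mutant replicate 2, 3 without mutant replicate 3 and 4 without WT replicate 1. Summed over the list, levels were 52911, 53834 and 50346 TPM in the mutant libraries, against 26024, 28302 and 26997 TPM in WT, without overlap. The list took 5.35 to 5.71% of the mutant libraries and 2.76 to 3% of the WT libraries. A 40S ribosomal protein S13-like gene (MELO3C005580.2) measured 592, 723 and 625 TPM in mutant and 86.9, 129.5 and 91.2 TPM in WT flesh (log2 change 2.66, SE 0.18, adjusted p = 0.000201). A second S13 gene (MELO3C027938.2) measured 6.42, 0 and 2.02 TPM in the mutant and 159, 193 and 174 TPM in WT (log2 change -5.96, SE 0.72, adjusted p = 0.00123). Paralogs of 1 ribosomal protein share sequence, and the sources used here do not say how the authors' counting split reads between them. The most abundant gene of the list, 40S ribosomal protein S27 (MELO3C005089.2), averaged 1103 ± 103 TPM in the mutant and 1474 ± 103 TPM in WT (SD, n = 3 each) and was not called (adjusted p = 0.0621).

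Among genes of cell cycle and cytoskeleton, 100 of 232 rose and 38 fell (43.1% and 16.4%, beside 38.5% and 21.5% of all genes), with 77 and 60 under median-of-ratios scaling and 69 and 68 under quantile normalization. A tubulin beta chain gene (MELO3C005673.2), part of microtubules, measured 128, 141 and 113 TPM in the mutant, against 0.48, 0.83 and 1.08 TPM in WT (log2 change 6.17, SE 0.16, adjusted p = 2.86e-05). Cyclin-D1-1 (MELO3C012023.2), which drives entry into the cell cycle, measured 19.7, 27 and 22.9 TPM in mutant and 0.03, 0 and 0 TPM in WT flesh (log2 change 4.57, SE 0.15, adjusted p = 4.1e-05). The cyclin-dependent kinase inhibitor SMR4 (MELO3C023871.2), a brake on division, measured 0, 7.75 and 0 TPM in the mutant and 2245, 1175 and 1934 TPM in WT (log2 change -9.71, SE 0.92, adjusted p = 0.000552). Of 36 tested histones, 9 rose and 4 fell as deposited (36.1% called, against 60% of all genes), and 7 and 9 did under median-of-ratios scaling; without WT replicate 2 the counts were 14 and 3. A histone H3 gene (MELO3C011045.2) measured 169, 136 and 165 TPM in the mutant, against 588, 615 and 552 TPM in WT (log2 change -1.90, SE 0.11, adjusted p = 0.000137). A histone H2B gene (MELO3C004866.2) measured 90.7, 58.1 and 62.3 TPM in mutant and 15.1, 15.8 and 11.6 TPM in WT flesh (log2 change 2.22, SE 0.21, adjusted p = 0.000535).

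Aquaporins, channels for water and small solutes, gave opposite pictures by count and by level. Of 27 tested, 16 rose and 4 fell (59.3% and 14.8%, beside 38.5% and 21.5% of all genes), in the same order under both other scalings. Aquaporin genes that rose were low to moderate, such as MELO3C024483.2 with 65.9, 96.5 and 93.7 TPM in the mutant and 0.16, 0.59 and 0.38 TPM in WT (log2 change 5.96, SE 0.21, adjusted p = 4.46e-05). NIP6-1 (MELO3C017831.2) measured 74.9, 101 and 90.9 TPM in the mutant, against 0.95, 0.46 and 1.29 TPM in WT (log2 change 5.58, SE 0.21, adjusted p = 5.61e-05). Aquaporin PIP2 (MELO3C013347.2), of the plasma membrane class, fell to 28.8, 54.7 and 37 TPM in the mutant, against 11895, 5262 and 12128 TPM in WT (log2 change -7.84, SE 0.42, adjusted p = 0.000107). With the abundant aquaporin MELO3C005685.2 given above, it accounts for most of the WT sum. Aquaporins summed to 2600, 3592 and 3007 TPM in the mutant libraries, against 23119, 11761 and 26531 TPM in WT.

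Protease inhibitors, known from storage and defence, had a higher summed level in the mutant. Of 44 tested, 22 rose and 6 fell (50% and 13.6%, beside 38.5% and 21.5% of all genes), with 63.6% called against 60%. The median log2 change was 1.37, against 0.27 over all genes. The most abundant, a cysteine proteinase inhibitor (MELO3C012701.2), measured 1897, 4480.1 and 2964 TPM in mutant and 290.5, 123 and 248 TPM in WT flesh (log2 change 3.82, SE 0.46, adjusted p = 0.00119). Another of that description (MELO3C008183.2) measured 187, 2067 and 598 TPM in the mutant and 2.53, 2.25 and 2.01 TPM in WT and one more (MELO3C002921.2) measured 589, 1475 and 1109 TPM in the mutant, against 13.3, 3.75 and 10.9 TPM in WT. In all 3 genes mutant replicate 2 was the highest library and replicate 1 the lowest of the mutant. A Kunitz trypsin inhibitor (MELO3C002175.2) went the other way, with 48.4, 41.2 and 39 TPM in mutant and 3064, 4405 and 1776 TPM in WT flesh (log2 change -6.04, SE 0.34, adjusted p = 0.000125). A proteinase inhibitor (MELO3C031670.2) was listed at 0 in the 3 mutant libraries, against 199.7, 104 and 169.5 TPM in WT. Summed levels did not overlap, at 10906, 19667 and 14405 TPM in the mutant and 5753, 8113 and 3782 TPM in WT.

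Metallothioneins summed to 13673, 13746 and 15521 TPM in the mutant libraries, against 6098, 5058 and 5576 TPM in WT. Of 3 tested, only metallothionein 4A rose, and it held most of the mutant sum; leaving out mutant replicate 1 added 1 fall.

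**Figure D4:**
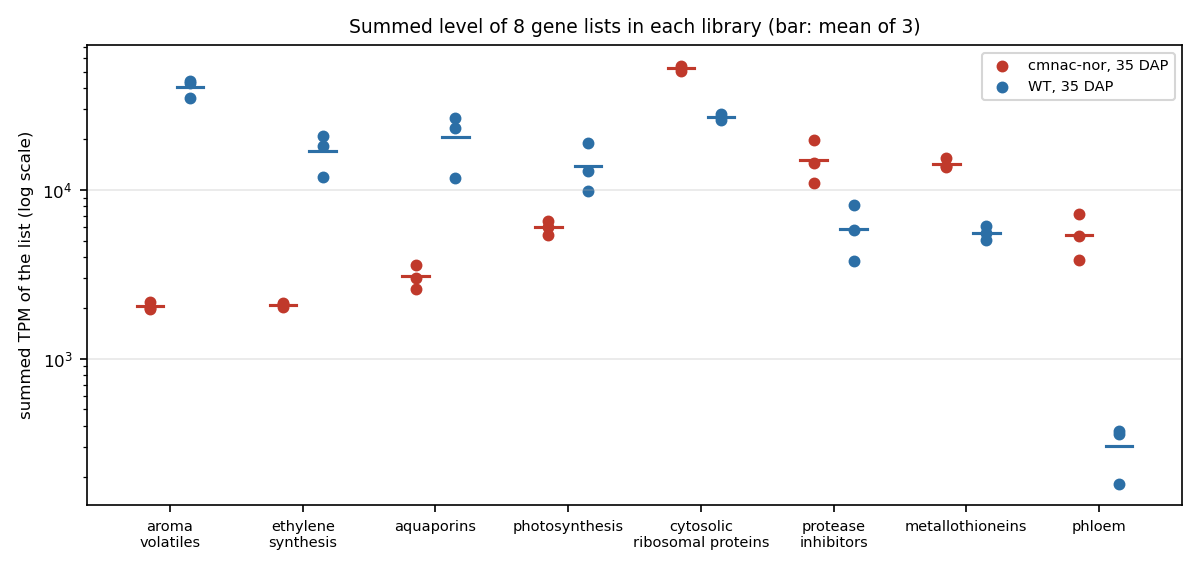
Summed TPM of 8 gene lists in each mutant (red) and WT library (blue) at 35 DAP on a log axis, with bars at the mean of 3 libraries. Aroma, ethylene synthesis, aquaporin and photosynthesis lists sum lower in the mutant and the other lists higher, and the libraries of the genotypes do not overlap in any of the 8. Some sums rest mostly on a single gene or a few genes, as given in the text.

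Oxidative metabolism had enzymes at both extremes. Of 80 tested antioxidant enzymes, 26 rose and 21 fell (58.8% called, near the 60% of all genes), with 22 and 28 under quantile normalization. Catalase (MELO3C026532.2), which removes hydrogen peroxide and is the most abundant of the list, measured 3695, 5268 and 4049.7 TPM in the mutant and 730.2, 921 and 853 TPM in WT (log2 change 2.37, SE 0.23, adjusted p = 0.000579). In contrast to the ascorbate oxidase given above, an L-ascorbate oxidase homolog (MELO3C013307.2) measured 12.3, 6.18 and 7.6 TPM in the mutant, against 649.7, 1186 and 466 TPM in WT (log2 change -6.25, SE 0.41, adjusted p = 0.00018). Likewise a peroxidase (MELO3C012183.2) measured 2.42, 1.8 and 1.92 TPM in mutant and 257, 119 and 314 TPM in WT flesh (log2 change -6.14, SE 0.37, adjusted p = 0.000148). Of 42 tested glutathione S-transferases, which conjugate glutathione to toxic compounds, 17 rose and 6 fell (40.5% and 14.3%, beside 38.5% and 21.5% of all genes). The most abundant (MELO3C016167.2) fell to 313, 176 and 245 TPM in the mutant, against 1852, 2255 and 1877 TPM in WT (log2 change -3.06, SE 0.24, adjusted p = 0.000297). Of 127 tested cytochrome P450 genes, 50 rose and 33 fell (39.4% and 26%, beside 38.5% and 21.5% of all genes), but 37 and 48 under quantile normalization. A P450 (MELO3C016794.2) that rose measured 103, 360.1 and 161 TPM in the mutant and 0.33, 0.47 and 0.6 TPM in WT (log2 change 6.97, SE 0.46, adjusted p = 0.000184).

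Heat shock proteins and chaperones, which help proteins fold, had more falls than rises: 84 of 227 tested fell (37%, against 21.5% of all genes) and 65 rose, with 104 and 50 under median-of-ratios scaling. Members were found at both ends. Heat shock 21-like (MELO3C018228.2) measured 30.9, 118 and 150.2 TPM in the mutant libraries and was listed at 0 in the 3 WT libraries. A class I heat shock protein (MELO3C009210.2) measured 394, 448 and 229 TPM in the mutant, against 4.02, 1.68 and 4.99 TPM in WT (log2 change 6.32, SE 0.40, adjusted p = 0.000163). BAG family regulator 6-like (MELO3C017749.2), which binds chaperones, measured 1.17, 0.99 and 1.31 TPM in mutant and 80.5, 74.5 and 91.1 TPM in WT flesh (log2 change -5.26, SE 0.12, adjusted p = 2.6e-05). Of 144 tested defence proteins, 65 rose and 25 fell (62.5% called, near the 60% of all genes). Pathogenesis-related protein 1 (MELO3C020880.2) measured 286, 347 and 283 TPM in the mutant and 0.76, 3.19 and 1 TPM in WT (log2 change 6.96, SE 0.35, adjusted p = 9.2e-05). MLP-like protein 328 (MELO3C015005.2) measured 84.9, 1.02 and 22.8 TPM in the mutant, against 3318, 1896 and 3542 TPM in WT (log2 change -7.45, SE 1.38, adjusted p = 0.00582). The most abundant defence gene, a pathogenesis-related protein 1-like gene (MELO3C018536.2), was measured at 8495, 0 and 1832 TPM in the mutant libraries, against 34.1, 221 and 0 TPM in WT, and was not called (adjusted p = 0.457).

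Phenylpropanoid and lignin genes rose in 35 and fell in 19 of 90 tested, the same 60% called as over all genes (38.9% and 21.1%, beside 38.5% and 21.5%), but 27 and 29 under quantile normalization. Caffeoylshikimate esterase (MELO3C002421.2), of lignin synthesis, measured 327, 209.5 and 319.8 TPM in mutant and 0.17, 2.28 and 0.1 TPM in WT flesh (log2 change 7.44, SE 0.48, adjusted p = 0.000171). Caffeoyl-CoA O-methyltransferase (MELO3C011872.2), the most abundant of the list, measured 1136, 749 and 1020.2 TPM in the mutant and 274, 339.6 and 287 TPM in WT (log2 change 1.67, SE 0.19, adjusted p = 0.00102). A caffeic acid 3-O-methyltransferase 1-like gene (MELO3C014089.2) measured 12.8, 15 and 19.2 TPM in the mutant, against 553, 269.6 and 513 TPM in WT (log2 change -4.69, SE 0.32, adjusted p = 0.000194). Among 80 tested genes of senescence and proteolysis, 32 rose and 23 fell (40% and 28.7%, beside 38.5% and 21.5% of all genes), with 26 and 30 under quantile normalization. Cysteine proteinase RD19a-like (MELO3C010982.2) measured 471, 267 and 360.0 TPM in mutant and 3073, 2649 and 3228 TPM in WT flesh (log2 change -3.06, SE 0.24, adjusted p = 0.000316). The most abundant gene of the list, a cathepsin B-like cysteine protease (MELO3C026898.2), averaged 1783 ± 195 TPM in the mutant and 1624 ± 168 TPM in WT (SD, n = 3 each) and was not called (adjusted p = 0.567).

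Circadian clock genes, which keep daily time, fell in 7 and rose in 3 of 13 tested (53.8% and 23.1%, beside 21.5% and 38.5% of all genes), with the same counts under both other scalings. LHY-like (MELO3C022302.2), a factor of the morning in Arabidopsis, measured 18.1, 9.08 and 14.4 TPM in the mutant and 114, 131 and 127 TPM in WT (log2 change -3.12, SE 0.24, adjusted p = 0.000297). GIGANTEA-like (MELO3C030034.2), of the evening there, measured 230.0, 332 and 276 TPM in the mutant, against 65.3, 67.4 and 43.3 TPM in WT (log2 change 2.24, SE 0.22, adjusted p = 0.000626). The sources used here do not give the hour of harvest, and its part in these values was not tested.

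Markers of other tissues were read to check the flesh label. Of 16 seed storage protein and oleosin genes in the table, 6 were listed at 0 in each of the 6 libraries and 11 stayed under 1 TPM, and their sum was 59.5 to 75.1 TPM in the mutant and 85.2 to 162 TPM in WT. In the wider seed list of late embryogenesis and related genes, 11 of 50 tested rose and 14 fell (22% and 28%, beside 38.5% and 21.5% of all genes), and its summed level was 2994 to 4069 TPM in the mutant and 1069 to 1534 TPM in WT. The list counted 10 rises and 18 falls under median-of-ratios scaling and 7 and 20 under quantile normalization. Its most abundant gene, late embryogenesis abundant 3 family protein (MELO3C015995.2), measured 2273, 3469 and 2492 TPM in mutant and 213, 373 and 183 TPM in WT flesh (log2 change 3.46, SE 0.33, adjusted p = 0.000529). This gene held most of the mutant sum, so the higher sum in the mutant does not describe the rest of the list. Cuticle and rind genes were low throughout, with 14 of 23 under 1 TPM in each library and sums of 64.7 to 68.8 TPM in the mutant and 36.8 to 70 TPM in WT, and of 10 tested, 3 rose and 1 fell (40% called, against 60% of all genes), with 4 and 2 without WT replicate 2. Transcripts of organelle genomes and ribosomal RNA summed to 234 to 278 TPM in the mutant and 424 to 820.5 TPM in WT, with 19 of 41 under 1 TPM in each library. Of 22 tested, 3 rose and 3 fell as deposited (27.3% called, against 60% of all genes; 1 and 2 without mutant replicate 3), against 1 and 7 under median-of-ratios scaling and 0 and 8 under quantile normalization. The part of seed, rind or organelle transcripts in the differences between the genotypes was not tested.

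The summed level of phloem genes did not overlap between the genotypes. Of 25 tested, 11 rose and 2 fell (1 without WT replicate 1), which is 52% called against 60% of all genes (44% higher and 8% lower, beside 38.5% and 21.5%). The other 12 were not called, and the median log2 change was 2.03, against 0.27 over all genes. Among its 28 genes in the table, 1 was listed at 0 and 3 stayed under 1 TPM in each library. Their summed level was 3845, 7147 and 5290 TPM in the mutant libraries, against 371, 181 and 355 TPM in WT. The 26 kDa phloem lectin (MELO3C002874.2), a sugar-binding protein of sieve tube sap in cucurbits, measured 2671, 5368 and 3995 TPM in the mutant and 250.0, 109.7 and 232 TPM in WT (log2 change 4.37, SE 0.42, adjusted p = 0.00057). PHLOEM PROTEIN 2-LIKE A1 (MELO3C027112.2) measured 415, 403 and 474 TPM in the mutant, against 2.99, 0.49 and 3.64 TPM in WT (log2 change 7.16, SE 0.45, adjusted p = 0.000161). PHLOEM PROTEIN 2-LIKE A9 (MELO3C021763.2) measured 129, 79.1 and 78.9 TPM in mutant and 0.3, 0.1 and 0 TPM in WT flesh (log2 change 6.38, SE 0.24, adjusted p = 5.48e-05). A 17 kDa phloem lectin (MELO3C027040.2) went the other way at low levels, with 0.38, 2.24 and 1.17 TPM in the mutant and 11.1, 5.79 and 16 TPM in WT (log2 change -2.39, SE 0.46, adjusted p = 0.00681). The part of vascular tissue in these or other differences was not tested.

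Many of the genes called at 35 DAP were called in the same direction at the neighbouring ages, in libraries that the comparison at 35 DAP does not use. Each age was fitted on its own 6 libraries. The overlaps were counted on the TPM scale only, not under the other scalings. On that scale the median log2 change over all genes tested was 0.44 (25 DAP), 0.27 (35 DAP) and 0.22 (45 DAP). At 25 DAP 12383 genes (70.1%) were called, 8918 higher (50.5%) and 3465 lower (19.6%). At 45 DAP 11126 (63%) were called, 7110 higher (40.3%) and 4016 lower (22.7%). Of the genes higher at 35 DAP, 82.1% were also called higher at 25 DAP, where they made up 62.6% of the higher genes. Of those lower at 35 DAP, 59.2% were called lower at 25 DAP, where they made up 65% of the lower genes. For 45 DAP, the shares were 76.1% and 72.8% of the higher genes and 69.2% and 65.5% of the lower genes. In all, 6147 genes were called in 1 direction at 25, 35 and 45 DAP, 4446 higher and 1701 lower. Of the 337 genes under 1 TPM in each WT library at 35 DAP, 318 were called higher at 25 DAP and 314 at 45 DAP. Of the 115 under 1 TPM in each mutant library, 99 were called lower at 25 DAP and 103 at 45 DAP.

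The size of the genotype effect nevertheless differed between 35 and 25 DAP for 6407 genes, 36.3% of those tested, by an interaction contrast in limma over 12 libraries. It was more positive at 35 DAP for 2435 (13.8%) and more negative for 3972 (22.5%). The other scalings gave 3266 and 2960 (median-of-ratios) and 2957 and 3000 (quantile). Called at both ages with opposite signs were 579 genes. Of these, 375 were higher at 25 DAP and lower at 35 DAP and 204 the reverse. The difference was called for all 579, which adds little, since they were picked by opposite calls in the same libraries. A further 1379 genes were called at 35 DAP and not at 25 DAP with the difference itself called, 548 higher and 831 lower. In the other direction, 1866 were called at 25 DAP and not at 35 DAP with the difference called.

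The positive differences were led by a SWEET sugar transporter (MELO3C026184.2), which averaged 6.28 ± 3.32 TPM in the mutant and 164 ± 75.1 TPM in WT (SD, n = 3 each) at 25 DAP. At 35 DAP it measured 363, 56.9 and 552 TPM in the mutant, against 1.89, 141 and 2.11 TPM in WT, where the genotypes overlapped through replicate 2 of both, and it was not called at 35 DAP alone (difference 8.92, SE 1.97, adjusted p = 0.00662). A CBL-interacting protein kinase (MELO3C035201.2), of a family that relays calcium signals, averaged 11.5 ± 11.3 TPM in the mutant and 246 ± 24.2 TPM in WT (SD, n = 3 each) at 25 DAP. It measured 759, 97.3 and 360.1 TPM in mutant and 22.1, 37.1 and 9.17 TPM in WT flesh at 35 DAP (difference 8.53, SE 1.12, adjusted p = 0.000468). Metallothionein 4A averaged 14090 ± 6743 TPM in the mutant and 4539.9 ± 1674 TPM in WT (SD, n = 3 each) at 25 DAP; WT flesh was low in it at 35 DAP and not at 25 DAP (difference 7.13, SE 0.67, adjusted p = 8.36e-05). The same held for ACC oxidase homolog 6 (MELO3C022978.2), a relative of ACC oxidase by description. It averaged 525 ± 32.2 TPM in the mutant and 576 ± 315 TPM in WT (SD, n = 3 each) at 25 DAP and measured 1408, 1302 and 1482 TPM in the mutant and 6.35, 28.6 and 4.52 TPM in WT at 35 DAP (difference 7.04, SE 0.78, adjusted p = 0.000194). A calcium-binding EF-hand gene (MELO3C010869.2) averaged 4.59 ± 2.21 TPM in the mutant and 253 ± 98.2 TPM in WT (SD, n = 3 each) at 25 DAP. It measured 195, 9.56 and 67.7 TPM in the mutant, against 24.4, 5.11 and 26.8 TPM in WT at 35 DAP and was not called at 35 DAP alone (difference 7.19, SE 1.35, adjusted p = 0.00288).

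Among the negative differences, SMR4 was listed at 0 in the 3 mutant libraries at 25 DAP, against 7.84 ± 6.89 TPM in WT (SD, n = 3; difference -7.26, SE 1.47, adjusted p = 0.00428). At 45 DAP it averaged 219 ± 48 TPM in the mutant and 439.9 ± 299 TPM in WT (SD, n = 3 each), so the wide gap given for 35 DAP was seen at neither neighbouring age. A ZAT12-like zinc finger gene (MELO3C023840.2) averaged 48.2 ± 24.1 TPM in the mutant and 6.49 ± 5.53 TPM in WT (SD, n = 3 each) at 25 DAP. It measured 30.3, 0.12 and 16.6 TPM in mutant and 209.8, 281 and 75.8 TPM in WT flesh at 35 DAP, with mutant replicate 2 near 0 (difference -7.18, SE 1.60, adjusted p = 0.00681). Its call at 35 DAP alone (adjusted p = 0.0389) was lost without mutant replicate 3 and without any 1 of the WT libraries, among other settings, with adjusted p from 0.00272 to 0.11. A cysteine-rich transmembrane domain gene (MELO3C012630.2) averaged 184 ± 82.1 TPM in the mutant and 21.1 ± 16.5 TPM in WT (SD, n = 3 each) at 25 DAP. It measured 83.4, 2.08 and 69.8 TPM in the mutant and 461, 611 and 125 TPM in WT at 35 DAP and was not called at 35 DAP alone (difference -7.09, SE 1.79, adjusted p = 0.0122). The remaining pair likewise stood higher in the mutant at 25 DAP. YLS9 (MELO3C009530.2) averaged 198 ± 99.8 TPM in the mutant and 5.27 ± 3.64 TPM in WT (SD, n = 3 each) there (difference -6.50, SE 2.12, adjusted p = 0.0362). NRT1/ PTR FAMILY 7.3-like (MELO3C006241.2) averaged 47.7 ± 15.4 TPM in the mutant and 1.46 ± 0.68 TPM in WT (SD, n = 3 each) there (difference -5.75, SE 0.58, adjusted p = 0.000119). Its call at 35 DAP alone was lost under 8 alternatives, among them leaving out any 1 of the WT libraries. Over the alternatives, adjusted p ran from 0.0106 to 0.19.

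The NAC gene MELO3C017754.2, lower in the mutant at 35 DAP, was called higher in it at the neighbouring ages, with log2 changes of 0.79 at 25 DAP and 1.25 at 45 DAP (difference from 25 DAP -4.38, SE 0.45, adjusted p = 0.000132). The Kunitz trypsin inhibitor MELO3C002175.2 gave -0.57 at 25 DAP, -6.04 at 35 DAP and -5.44 at 45 DAP (difference from 25 DAP -5.47, SE 0.61, adjusted p = 0.00021). ACC oxidase 1 was lower in the mutant at each of these ages, by a log2 change of -7.24 at 25 DAP, -10.60 at 35 DAP and -7.90 at 45 DAP (difference from 25 DAP -3.35, SE 0.48, adjusted p = 0.000731).

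Gene lists differed in how their effect moved between ages. Cytosolic ribosomal proteins had a median log2 change of 1.80 (25 DAP), 0.96 (35 DAP) and 0.56 (45 DAP), beside 0.44, 0.27 and 0.22 over all genes tested. Their difference between 35 and 25 DAP was called negative for 124 of 169 genes and positive for 1, with 110 and 2 under median-of-ratios scaling; over all genes 22.5% of the differences were negative and 13.8% positive. Photosynthesis genes ran the other way, with medians of -1.73, -0.50 and -0.57, 34 positive and 5 negative differences of 89. Carotenoid cleavage and abscisic acid genes had 15 positive and 2 negative differences of 31, among them 9-cis-epoxycarotenoid dioxygenase MELO3C023086.2 with a log2 change of 0.06 at 25 DAP and 3.66 at 35 DAP (difference 3.60, SE 0.40, adjusted p = 0.000211).

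**Figure D5:**
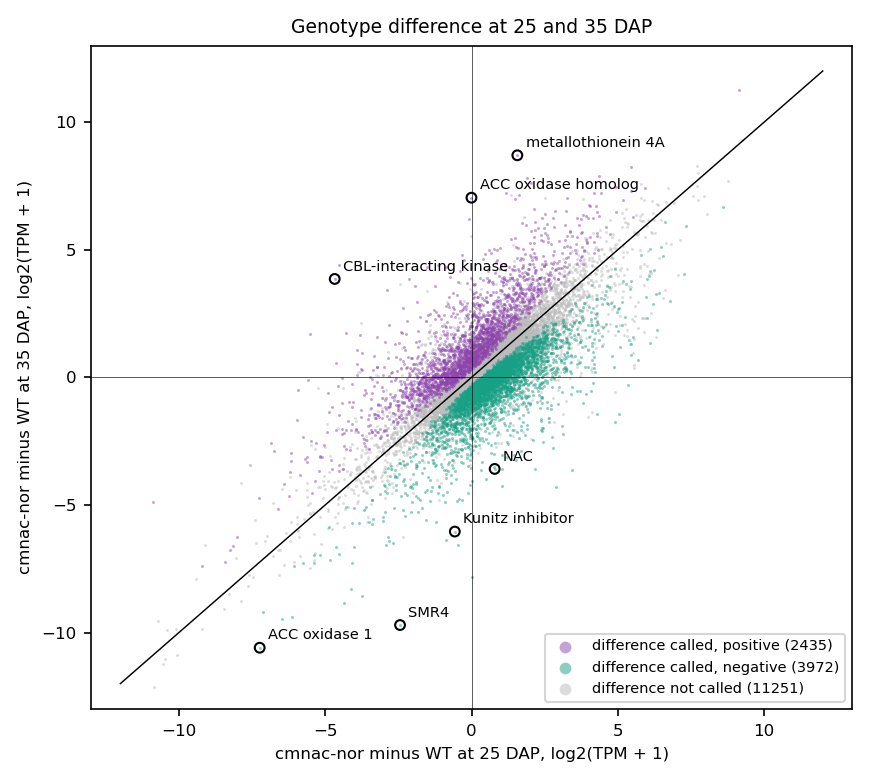
Genotype effect of each gene tested at 35 DAP (vertical axis) against that at 25 DAP (horizontal axis), both as mutant minus WT on the log2(TPM + 1) scale, from separate libraries. Purple points had a called positive difference between the ages (2435 genes), green points a called negative one (3972) and grey points none; metallothionein 4A and ACC oxidase homolog 6 lie near 0 to 2 at 25 DAP and above 7 at 35 DAP.

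Between 45 and 35 DAP the genotype effect differed for 4537 genes, 25.7% of those tested, with 2252 more positive (12.8%) and 2285 more negative (12.9%) at 45 DAP. A mannan endo-1,4-beta-mannosidase 1-like gene (MELO3C022162.2), which cuts mannan of the wall, measured 0, 0.56 and 0 TPM in the mutant, against 1098, 264 and 1043 TPM in WT at 35 DAP. It averaged 344 ± 21.3 TPM in the mutant and 203 ± 32.5 TPM in WT (SD, n = 3 each) at 45 DAP (difference 9.94, SE 0.65, adjusted p = 1.8e-05). A VAN3-binding protein gene (MELO3C006503.2) measured 1.72, 0.83 and 0.88 TPM in mutant and 55.4, 24.1 and 51 TPM in WT flesh at 35 DAP. It averaged 400.0 ± 82.8 TPM in the mutant and 11 ± 2.73 TPM in WT (SD, n = 3 each) at 45 DAP (difference 9.38, SE 0.45, adjusted p = 2.54e-06). SMR4 had the third largest positive difference among the genes that met the conditions of the choice (8.97, SE 1.16, adjusted p = 0.000693). On the negative side, dc2.15 averaged 222 ± 32.2 TPM in the mutant and 123 ± 45.2 TPM in WT (SD, n = 3 each) at 45 DAP (difference -8.41, SE 0.67, adjusted p = 4.82e-05). A leucine-rich repeat gene (MELO3C032314.2) measured 192, 45 and 126 TPM in the mutant and 8.29, 1.01 and 9.33 TPM in WT at 35 DAP. It averaged 0.567 ± 0.982 TPM in the mutant and 21.4 ± 5.13 TPM in WT (SD, n = 3 each) at 45 DAP (difference -8.16, SE 0.99, adjusted p = 0.000489). A peroxidase (MELO3C014658.2) measured 113, 459.7 and 163 TPM in the mutant, against 0.1, 0.15 and 0.18 TPM in WT at 35 DAP. It averaged 0.563 ± 0.312 TPM in the mutant and 0.243 ± 0.215 TPM in WT (SD, n = 3 each) at 45 DAP (difference -7.16, SE 0.59, adjusted p = 5.62e-05).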

How the data were processed

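Total RNA of fruit flesh was extracted with Trizol and treated with DNase I, and libraries were made with a TruSeq RNA kit and read on an Illumina instrument, per the labels' protocols and the series' design text. The table the authors deposited holds a value per gene and library whose sums, between 941440 and 943982 in the 6 libraries at 35 DAP, fit TPM; neither the labels nor the header name the unit. TopHat2, HISAT2, StringTie and Cufflinks are named, without version or role, per the submitters' processing notes; the sources used here give no genome build, annotation, strand setting or read counts, so depth and its precision are unknown.

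From these values, limma 3.58.1 in R 4.3.3 was run as limma-trend on log2(TPM + 1), two-sided, with Benjamini-Hochberg adjustment over the 17658 genes with 1 TPM or more in at least 3 of 24 libraries. The test at 35 DAP used its 6 libraries, and differences between ages used an interaction contrast over 12. The scripts were tested on simulated data in which few genes were changed. Most genes were called in the real comparison at 35 DAP, so that test does not bear on the share called. Groups came from the sample titles. Replicate numbers were not treated as pairs in the main fit.

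The members and the 40 gene lists, which were picked by words in the table's descriptions, were chosen with earlier results of these data known. A match of words can bring in genes outside the group that a list is named for. Lists are described by counts and medians, without a test. Named genes were CmNAC-NOR, the 8 largest changes in each direction (called, described, without overlap, mean of 10 TPM or more), the 5 most abundant of each genotype, up to 2 per direction and the most abundant of each list, and the largest differences between ages (5 per direction for 25 DAP, 3 for 45 DAP). Those largest differences were ranked only among called, described genes with a mean of 10 TPM or more in at least 1 group compared. NAC gene, Kunitz inhibitor, ACC oxidase 1 and 9-cis-epoxycarotenoid dioxygenase differences from 25 DAP were picked after their values were seen. Alternatives were other pseudocounts, filters, scalings, moderation, a replicate block, all 24 libraries in 1 fit and each library left out. No identifier (0) matched the RefSeq gene table at hand, so gene names are those of the deposited table and no sequence is shown. The exception is CmNAC-NOR: the description of MELO3C016540.2 is only NAC domain protein, so that name is not taken from it.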

Additional observations from a re-analysis of the deposited data

Results flagged for a closer look

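The genotype effect differed between ages, by an interaction contrast in limma with Benjamini-Hochberg adjustment, for 6407 genes between 35 and 25 DAP and for 4537 between 45 and 35 DAP. Values are differences of the log2 change, mutant minus WT, between the ages. The leading genes were ranked only among called, described genes with a mean of 10 TPM or more in at least 1 group compared.

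Between 35 and 25 DAP, positive differences were led by the SWEET sugar transporter MELO3C026184.2 (8.92), the CBL-interacting protein kinase MELO3C035201.2 (8.53), the calcium-binding EF-hand gene MELO3C010869.2 (7.19), metallothionein 4A MELO3C003132.2 (7.13) and ACC oxidase homolog 6 MELO3C022978.2 (7.04). In the transporter, the kinase and the EF-hand gene, mutant replicate 2 was the lowest mutant library at 35 DAP, at 56.9, 97.3 and 9.56 TPM. Metallothionein 4A did not share this order. In ACC oxidase homolog 6, mutant replicate 2 was also the lowest, but the mutant libraries lay close together. Negative differences were led by the kinase inhibitor SMR4 MELO3C023871.2 (-7.26), the ZAT12-like gene MELO3C023840.2 (-7.18), the cysteine-rich transmembrane gene MELO3C012630.2 (-7.09), YLS9 MELO3C009530.2 (-6.50) and NRT1/ PTR FAMILY 7.3-like MELO3C006241.2 (-5.75). In the last 4 of these, mutant replicate 2 was also the lowest mutant library and WT replicate 2 the highest WT library at 35 DAP.

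Between 45 and 35 DAP, positive differences were led by the mannan endo-1,4-beta-mannosidase MELO3C022162.2 (9.94), the VAN3-binding protein gene MELO3C006503.2 (9.38) and SMR4 MELO3C023871.2 (8.97). Negative ones were led by dc2.15 MELO3C005540.2 (-8.41), the leucine-rich repeat gene MELO3C032314.2 (-8.16) and the peroxidase MELO3C014658.2 (-7.16).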

How the results depend on the processing

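The count of genes called at 35 DAP stayed within 1.5 times of 10601 under the alternatives run: 11370 with all 24 libraries in 1 fit, 10676 with a pseudocount of 0.1, 10613 under median-of-ratios scaling, 10537 under quantile normalization, 10291 without the filter, 8555 with a mean of 5 TPM or more (fewer genes tested), 10535 with robust moderation, and 8702 to 10742 with 1 library left out (5518 to 7025 higher, 3154 to 3717 lower). Leaving out replicate 2 of both genotypes, an alternative chosen after seeing the data, gave 10839. With 1 library left out, 5246 to 6561 genes (2042 to 2775 positive, 3152 to 3858 negative) differed between 35 and 25 DAP and 3286 to 5591 (1709 to 2425 positive, 1539 to 3166 negative) between 45 and 35 DAP. A replicate block gave 8931 genes at 35 DAP (5793 higher, 3138 lower), 4933 differences from 25 DAP and 3078 from 45 DAP; of these, 1499 were more negative at 45 DAP, against 2285 without the block, and the cause was not tested. Deviations of same-numbered libraries from their group means correlated at -0.016, -0.19 and -0.15. With 3 libraries per group, these values cannot tell whether same-numbered libraries shared a harvest or batch. Of 202 named genes, 187 were called; 170 of these were called under each alternative in which they were tested, 17 lost the call under at least 1, and 0 reversed. Depth is unknown, and low TPM values cannot be given a counting error.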
